A study of Mus musculus with 6 samples.

Results

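The genes described here are named for the proteins of the cytosolic ribosome. They were taken by symbol from a table of 23955 gene symbols: names made of Rps or Rpl and a number with the usual suffixes, together with Rplp0, Rplp1, Rplp2, Rpsa and Rps27rt. This gave 86 genes, 34 of the small and 52 of the large subunit, on 19 chromosomes with 4 of them on X. Of the 86, 9 carry the name of a copy or paralog of another member. The values came from haematopoietic stem cells (HSCs) of mice, lineage-negative Sca-1+ c-Kit+ marrow cells with CD150 and without CD48, sorted at 20000 cells per library. The groups were C57BL/6 mice of genotype db/db, which carry a mutated leptin receptor in every cell and become obese, and wild-type (WT) littermates, both 4 months old. Each of 3 independent experiments gave 1 WT and 1 db/db library, so n = 3 in each group. The labels do not say how many mice gave a library, so the p-values measure the spread between these libraries.

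A ribosome is built from ribosomal RNA and about equal numbers of copies of each ribosomal protein, so cells make these proteins in step with each other. The messenger RNAs (mRNAs) of vertebrate ribosomal proteins are known to begin with a C and an unbroken run of pyrimidines, the terminal oligopyrimidine tract, through which mTOR signalling sets how well they are translated. HSCs are known for a low and tightly held rate of protein synthesis, and inherited loss of 1 copy of several of these genes causes Diamond-Blackfan anaemia, a failure of red cell production.

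The tract can be read at the annotated starts of the members. RefSeq start windows (GRCm38.p6) were found for 65 of the 86 members, and 62 of these 65 had enough signal to be tested. A C at the first transcribed base followed directly by at least 4 pyrimidines (C or T), on the transcribed strand only, stood at the start of 14 of the 62 (22.6%) and of 262 of 8935 other genes tested (2.93%). A run of at least 8 pyrimidines within 10 bases of the start on either side was present in 21 of the 62 members (33.9%) and in 9.59% of the other genes. These letters depend on where the annotation sets the first base, and a window without them says nothing about the mRNA itself. Shown are the 4 of lowest and the 4 of highest log2 fold change in db/db among the 14, leaving out Rps27 and its copy, which come later. Each run gives 10 bases before and 20 bases from the annotated start, with the tract in capitals.
Rplp2, chr7:141447641-141447670, plus strand: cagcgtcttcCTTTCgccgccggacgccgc
Rpl38, chr11:114668570-114668599, plus strand: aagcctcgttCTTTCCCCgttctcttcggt
Rps15a, chr7:118116128-118116157, minus strand: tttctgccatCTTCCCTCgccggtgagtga
Rps21, chr2:180257369-180257398, plus strand: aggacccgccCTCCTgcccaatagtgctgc
Rpl14, chr9:120571507-120571536, plus strand: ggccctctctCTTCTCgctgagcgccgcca
Rpl28, chr7:4792955-4792984, plus strand: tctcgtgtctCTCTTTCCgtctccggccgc
Rps6, chr4:86857348-86857377, minus strand: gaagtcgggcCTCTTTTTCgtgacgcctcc
Rpl15, chr14:18270967-18270996, minus strand: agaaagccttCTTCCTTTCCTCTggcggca
Among tested members with a window, the 14 with the tract had a median log2 fold change of -0.46 and a median coding length of 380 nucleotides. The 48 without it had a median of -0.24 and a coding length of 448 nucleotides, so the sets also differed in length, and the tract's own part was not tested.

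The values were TPM, a measure of transcript abundance, which are corrected for transcript length and sum to 1000000 in each library, so levels of different genes can be set side by side. TPM keeps no read depth, and the depth of each library is unknown. The libraries differed in ways that touch these genes. Size factors, computed by median of ratios, were 0.904, 0.803 and 1.12 in WT replicates 1, 2 and 3 and 0.904, 1.12 and 1.21 in the db/db replicates. Symbols rich in ribosomal RNA sequence took 11.2% to 15.7% of the TPM in WT and 11.4% to 13.6% in db/db. All 13 genes of the stem cell list, which also holds Cd48, a gene that the gate excludes, had a mean of at least 1 TPM. The list summed to 1738 to 2869 TPM in WT and 2434 to 2845 TPM in db/db, with Cd48 itself at 1.09 to 21.4 TPM. Granulocyte and monocyte markers (12 of 12 listed) summed to 4779 TPM in WT replicate 1, 561 and 480 TPM in the other two WT libraries and, in db/db, 4165, 2341 and 1614 TPM. Erythroid markers (7 of 10 with a mean of at least 1 TPM, Hba-a2 at 0) summed to 633 to 846 TPM in WT and 986 to 2029 TPM in db/db. T and NK cell markers (2 of 7, Cd3e and Cd3g at 0) summed to 63.4 to 119 TPM and 132 to 209 TPM. B cell markers (1 of 8, with Ms4a1, Pax5, Ebf1 and Igll1 at 0) summed to 33.1 to 61.2 TPM in WT and 28.8 to 60.7 TPM in db/db, macrophage markers (3 of 6) to 0.66 to 34.4 TPM and 7.39 to 33.5 TPM, and markers of stroma and endothelium (4 of 7) to 25.1 to 46.3 TPM and 28.7 to 41.3 TPM. In such bulk libraries, fewer cells of a type and less RNA per cell cannot be told apart, and the part of these measures in the results below was not tested.

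Ribosomal protein mRNAs were among the most abundant transcripts of these cells. Of the 86 members, 81 had a mean of at least 100 TPM over the 6 libraries and 75 a mean of at least 1000 TPM, and 64 of the 100 most abundant symbols in the table were members. Among the 81, the mean level ran from 335 TPM for Rpl22 to 9832 TPM for Rpl10, a 29.4-fold range around a median of 2933 TPM, although the proteins are needed in like numbers. The median level was 3308 TPM for small-subunit and 2359 TPM for large-subunit members. The order of the levels was much the same in every library, with Spearman correlations over the 81 members of 0.852 to 0.982 between the 15 pairs of libraries, given as a description.

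**Figure D1:**
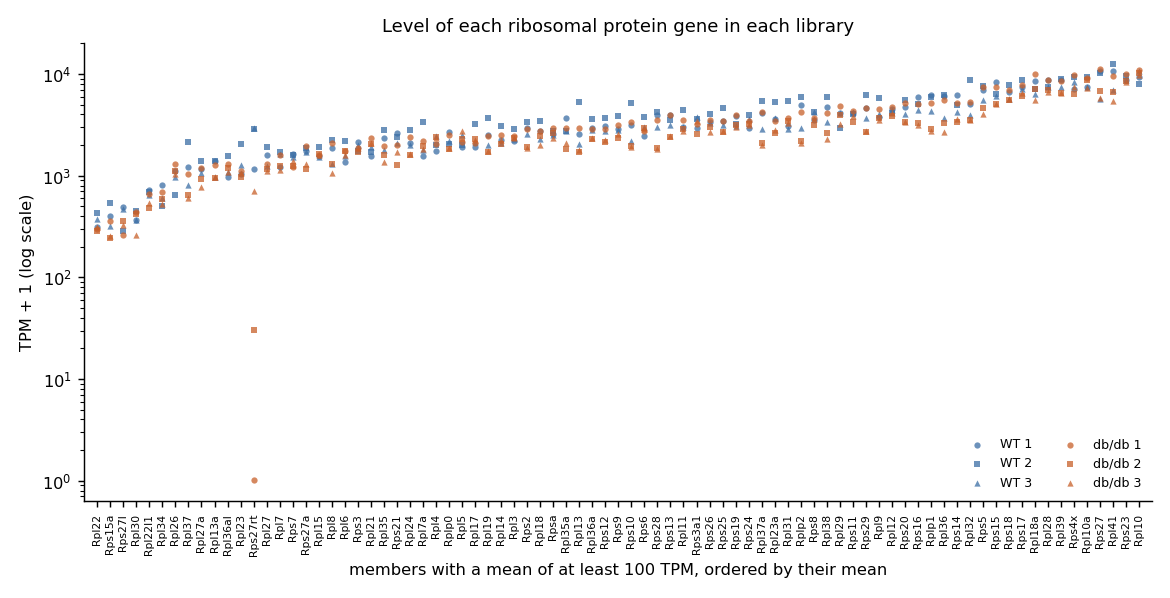
TPM + 1 (vertical log axis) of the 81 members with a mean of at least 100 TPM, ordered from left to right by their mean over 6 libraries, with WT libraries in blue and db/db libraries in orange and the experiment given by the marker. The order of the members is alike in all libraries, and Rps27rt alone spreads over several orders of magnitude.

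None of the 6 members of highest level passed the test between genotypes described below. Rpl10, which joins the large subunit as one of the last steps of its maturation, was listed at 9323, 7972 and 10714 TPM in WT and 10982, 10294 and 9708 TPM in db/db. Its groups overlapped, and the log2 fold change was 0.15 (SE 0.19). Rps23, a protein of the decoding centre, had means of 8982 ± 532 TPM for WT and 8983 ± 917 TPM for db/db (SD, n = 3 each). Rpl41, the shortest ribosomal protein, was listed at 10770, 12672 and 7021 TPM in WT and 9646, 6613 and 5471 TPM in db/db. Rpl41 was lower in db/db in each experiment, by -0.16, -0.94 and -0.36 on the log2 scale, and its lowest WT library lay below its highest db/db library. The X-linked Rps4x had means of 8267 ± 1084 and 7899 ± 1775 TPM, and Rpl10a 8420 ± 966 TPM in db/db against 8098 ± 1088 TPM in WT (SD, n = 3 each). Rps27, the remaining member of the top 6, is described with its copy below.

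Members at the bottom of the order were paralogs. Rpl10l, a retrocopy of Rpl10 known from testis, was listed at 0 in all 6 libraries. Rpl39l, a paralog of Rpl39 also known from testis, was listed at 0 in the 3 WT libraries and db/db replicate 1 and at 0.37 and 3.48 TPM in db/db replicates 2 and 3. The muscle paralog Rpl3l was listed at 0.49 TPM in WT replicate 3 and at 0 in the others. These 3 had a mean under 1 TPM and were not tested, which left 83 members, 34 of the small and 49 of the large subunit, in the test over 11931 genes. Rps4l and Rpl7l1 were tested at means of 11.0 and 37.4 TPM. Rps4l has 1 exon and no coding sequence in the annotation used here, so it is a member by name only and is left out of the comparison by coding length.

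The comparison of db/db with WT asked whether HSCs of obese mice differ in ribosomal protein transcripts. Members took 29.5%, 33.6% and 26.0% of all TPM in WT replicates 1, 2 and 3, and 30.4%, 22.9% and 22.5% in the db/db replicates. The highest db/db library thus lay within the WT range, and db/db replicates 2 and 3 lay below every WT library. The means were 29.7% ± 3.80 and 25.3% ± 4.46 (SD, n = 3 each), a difference of -4.45 percentage points. Over the 20 assignments of the libraries to groups, the exact permutation test (two-sided) gave p = 0.3, and it cannot go below 0.1. Within experiments 1, 2 and 3 the difference was 0.929, -10.7 and -3.58 percentage points (exact sign-flip permutation test, p = 0.5, smallest possible 0.25). Without WT replicate 2, the library with the highest share, the difference was -2.50 percentage points, and without db/db replicate 1 it was -7.03 percentage points. The share was highest in the library with the lowest size factor and lowest in the one with the highest size factor. Both measures come from TPM with a fixed total, where a larger share of members leaves less for other genes, so they are not independent.

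The balance of the subunits moved far less than the share. Summed small-subunit TPM over summed large-subunit TPM was 0.864, 0.813 and 0.883 for WT, and for db/db in the same order of experiments 0.848, 0.790 and 0.863. On the log2 scale the means were -0.229 ± 0.0617 and -0.264 ± 0.0677 (SD, n = 3 each), a difference of -0.0344 (exact two-sided permutation test, p = 0.5). The ratio was lower in db/db in each experiment, by -0.0263, -0.0425 and -0.0342, and in both genotypes replicate 2 had the lowest ratio. Within experiments, the exact sign-flip permutation test gave p = 0.25, the smallest possible with 3 pairs. Without the 9 copies and paralogs the difference was -0.011.

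**Figure D2:**
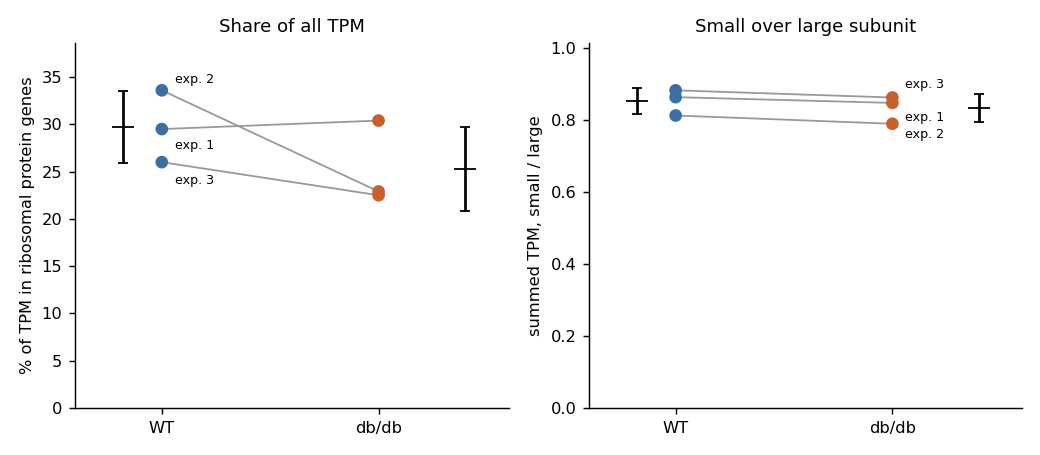
Left, percent of all TPM in the 86 members. Right, summed TPM of small-subunit over large-subunit members. Points are libraries (WT blue, db/db orange), grey lines join the libraries of an experiment, and the black marks give mean ± SD (n = 3). The share drops steeply in experiment 2 and is level in experiment 1, while the ratio stays between 0.790 and 0.883.

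Gene by gene, most members were lower in db/db but none passed. In limma on log2(TPM + 1) with Benjamini-Hochberg adjustment over all 11931 genes, 0 of 83 members passed as higher and 0 as lower at an adjusted p under 0.05. Over all genes 0.0335% passed as higher and 0% as lower. By an unadjusted p under 0.05, 13 members (15.7%) were lower and 0 higher, where 1.25% of all genes were lower and 4.1% higher. The median log2 fold change of the members was -0.24, against 0.18 for all genes tested, and the quartiles of the members were -0.42 and -0.09. Below 0 were 71 of the 83 members, against 31.9% of all genes. The 34 small-subunit members had a median of -0.27 with 32 below 0, and the 49 large-subunit members a median of -0.22 with 39 below 0.

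The lower values lay in experiments 2 and 3. The median log2 difference of the members was 0.05, -0.56 and -0.20 in experiments 1, 2 and 3, beside 0.00, 0.45 and 0.09 for all genes tested. In experiment 1, 34 members were lower and 49 higher, in experiment 2 73 were lower and 10 higher, and in experiment 3 70 were lower and 13 higher. Lower in all 3 experiments were 31 of 83 members (7.55% of all genes), and higher in all 3 were Rpl5, Rpl21 and Rpl26 (22.7% of all genes). WT replicate 2 held the highest value of 49 of the 81 members, and db/db replicates 2 and 3 the lowest of 30 and 31, as the colour map by library shows. Without WT replicate 2 the median of the members was -0.15 and that of all genes 0.08, and without db/db replicate 1 they were -0.33 and 0.31. The median of all genes also moves with scaling, and after median-of-ratios scaling it was 0.00 with the members at -0.44. After quantile normalization, which forces one distribution on all libraries, the medians were 0.01 and -0.11. With a library left out, members lower at an unadjusted p under 0.05 ran from 1 without db/db replicate 2 to 32 without db/db replicate 1, and 0 were higher. Higher members were 2 with the length trend removed, 1 after quantile normalization and 1 with array weights. The shares of all genes in these fits are not given, so the counts are a description only.

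**Figure D3:**
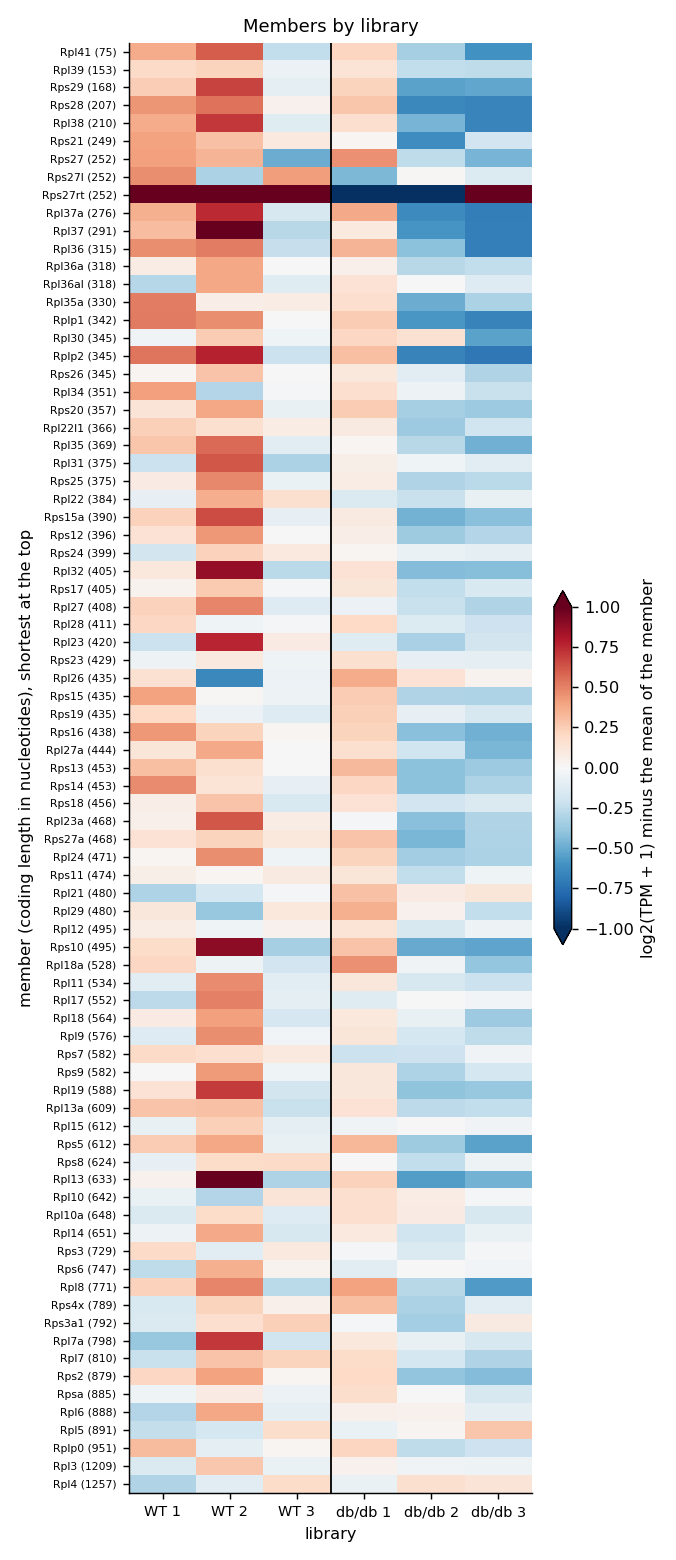
Colour gives log2(TPM + 1) of a member in a library minus the mean of that member over the 6 libraries, from -1 (blue) to 1 (red), with values beyond these in the end colours. The 81 rows are ordered by coding length (nucleotides in brackets), and a black line parts WT from db/db. Red is densest in WT replicate 2 and blue in db/db replicates 2 and 3, above all in the upper rows, which hold the shortest members.

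Of the stalk, the flexible arm of the large subunit that recruits elongation factors, the acidic proteins had lower log2 fold changes than their anchor, a difference that was not itself tested. Rplp1 was listed at 6212, 5992 and 4346 TPM in WT and 5164, 2896 and 2731 TPM in db/db. Rplp2 was listed at 5005, 5880 and 2969 TPM in WT and 4260, 2172 and 2100 TPM in db/db. Both were lower in db/db in each experiment, and in both db/db replicate 1 overlapped the WT range. The log2 fold changes were -0.66 (SE 0.23) for Rplp1 and -0.72 (SE 0.27) for Rplp2, with limma adjusted p of 0.754 and 0.795. Rplp0, the anchor of the stalk, had means of 2319 ± 351 and 2073 ± 387 TPM (SD, n = 3 each), with a log2 fold change of -0.17 (SE 0.21). The 4 members of the stalk list, with Rpl12 at its base, had a median of -0.41.

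Other members of lowest log2 fold change were short proteins of both subunits. Rpl37 was listed at 1203, 2149 and 801 TPM in WT and 1038, 644 and 603 TPM in db/db. WT replicate 2 stood above all other libraries for this gene, and its log2 fold change of -0.79 (SE 0.29) was -0.41 without that library. Rps28 was listed at 3949, 4237 and 2994 TPM in WT and 3536, 1867 and 1843 TPM in db/db, a log2 fold change of -0.68 (SE 0.24). Rpl38, known for its part in the translation of Hox mRNAs, was listed at 4718, 5944 and 3342 TPM in WT and 4089, 2631 and 2307 TPM in db/db, a log2 fold change of -0.64 (SE 0.24). For Rps28 and Rpl38, db/db replicates 2 and 3 lay below every WT library and db/db replicate 1 did not. None of these passed in limma (adjusted p of 0.787, 0.754 and 0.804).

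Groups did not overlap for 4 members with lower values in db/db, against 2.32% of all genes. They were Rps27rt, Rps21, Rps7 and Rpl23a, the last 3 singled out after their values were seen. Rps21 was listed at 2598, 2414 and 2102 TPM in WT and 1994, 1277 and 1720 TPM in db/db. Rps7, one of the Diamond-Blackfan genes, was listed at 1627, 1600 and 1518 TPM in WT and 1223, 1234 and 1388 TPM in db/db, with differences of -0.41, -0.37 and -0.13 within the experiments (log2 fold change -0.31, SE 0.20). Rpl23a, which sits at the exit of the peptide tunnel, had means of 4202 ± 992 and 2952 ± 433 TPM (SD, n = 3 each).

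A few large-subunit members ran against the rest. Rpl21 was listed at 1552, 1709 and 1915 TPM in WT and 2358, 2037 and 2099 TPM in db/db. It was the 1 member whose groups did not overlap with db/db higher (7.85% of all genes), with a log2 fold change of 0.33 (SE 0.20). Rpl26, which binds near the exit tunnel and is known as a regulator of p53 translation, was listed at 1118, 643 and 967 TPM in WT and 1297, 1110 and 1031 TPM in db/db. Its log2 fold change of 0.36 (SE 0.23) was drawn mainly from WT replicate 2, without which it was 0.13. Rpl5, which carries the 5S ribosomal RNA into the large subunit and binds Mdm2, was listed at 1903, 1983 and 2525 TPM in WT and 2138, 2279 and 2719 TPM in db/db (log2 fold change 0.16, SE 0.20). Rpl11, its partner on the 5S ribosomal RNA, did not share that direction, with means of 3482 ± 855 and 3048 ± 385 TPM (SD, n = 3 each), with a log2 fold change of -0.17 (SE 0.21). Rpl4, which lines the peptide tunnel, and Rpl29 had log2 fold changes of 0.15 and 0.10. All of these had a limma adjusted p of at least 0.919.

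Members tied to blood disease included both lower and level genes. The 18 Diamond-Blackfan genes had a median log2 fold change of -0.19, with 16 below 0, and none passed. Rps19, the gene most often mutated in that disease, was listed at 3868, 3235 and 3080 TPM in WT and 3986, 3184 and 3025 TPM in db/db, almost equal within each experiment (differences of 0.04, -0.02 and -0.03 on the log2 scale). Rps14, whose loss marks a myelodysplastic syndrome, was listed at 6256, 4966 and 4258 TPM in WT and 5207, 3393 and 3638 TPM in db/db, lower in each experiment, with a log2 fold change of -0.35 (SE 0.21). Rpsa, known also as the laminin receptor and for inherited absence of the spleen, had means of 2616 ± 143 and 2655 ± 311 TPM (SD, n = 3 each). The 8 members that surround the exit tunnel had a median of -0.27.

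The log2 fold change ran with the coding length of the member. The 11 tested members with a coding sequence of up to 300 nucleotides, stop codon not counted, had a median log2 fold change of -0.55, and all 11 were below 0. The median was -0.31 for the 29 members over 300 and up to 450 nucleotides, -0.22 for 19 up to 600 and -0.12 for 20 up to 900. For the 3 longest, Rplp0, Rpl3 and Rpl4, it was -0.03. In other genes of the same length bins the medians were 0.02, 0.07, 0.11, 0.14 and 0.18. Over the 81 members with a mean of at least 100 TPM, the Spearman correlation of log2 fold change with coding length was 0.52, and 0.51 without Rps27rt, given as a description of genes that share their libraries. Within experiments 1, 2 and 3 it was 0.52, 0.38 and 0.48, so it was present also in experiment 1, where the median member did not differ. For 11273 other genes the correlation was 0.13, and -0.04, 0.18 and 0.08 within the experiments. GC content of the transcript ran with the fold change at a correlation of only -0.05.

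The same contrast can be given per library. The deviation of a member from its own mean was summarised as a median over the 40 members of up to 450 nucleotides and over the 22 of more than 600. Short minus long was 0.30, 0.13 and -0.03 in WT replicates 1, 2 and 3 and 0.03, -0.14 and -0.20 in the db/db replicates. Each db/db library lay below the WT library of its experiment, and db/db replicate 1 lay above WT replicate 3, so the groups overlapped. In other genes (831 short, 9737 long) the same difference was 0.12, 0.21 and -0.11 for WT against 0.12, -0.12 and -0.20 for db/db, with no gap between genotypes in experiment 1. With the trend on transcript length over all genes removed from each library, the median log2 fold change of the members was -0.11, beside 0.17 for all genes. Full transcript length ran with the log2 fold change of the 81 members at a Spearman correlation of 0.38, weaker than coding length. Each gene had the length of a chosen annotated transcript, such as 5130 nucleotides for Rps15a and 3706 for Rps20, whose coding lengths are 390 and 357. Whether these cells express the chosen transcripts was not tested, which limits both the correlation and the removal of the trend. Whether the pattern by coding length remained after the removal was not tested.

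**Figure D4:**
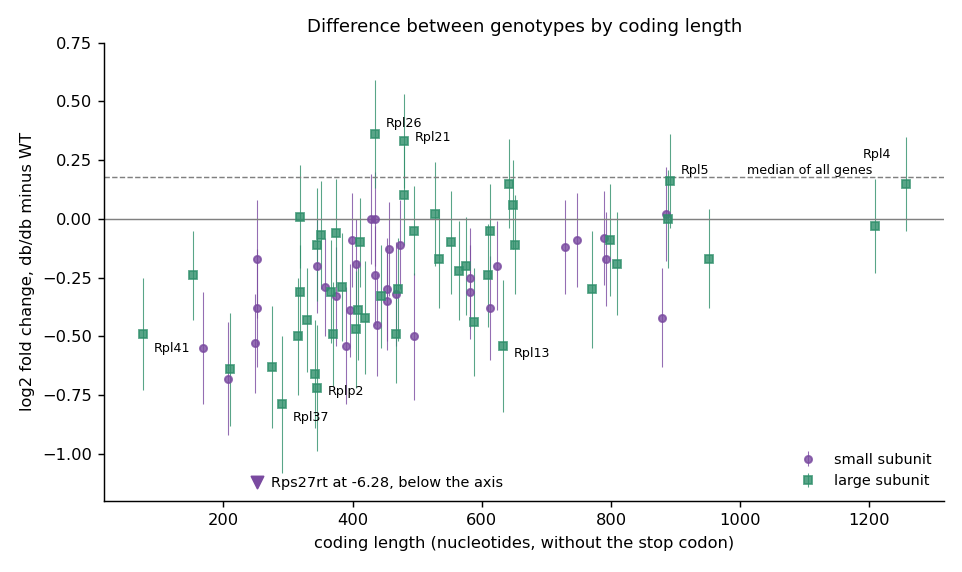
Log2 fold change between genotypes (db/db minus WT, bars ± SE from limma) against coding length for the 81 members that averaged 100 TPM or more, with small-subunit members as purple circles and large-subunit members as green squares. The dashed line is the median of all genes tested (0.18), and Rps27rt at -6.28 is drawn as a triangle below the axis. Members under 300 nucleotides all lie below 0, and the longest lie around 0.

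To see which members departed from the rest, each library was centred on its own median over the 81 members, and the test was repeated on the whole table. The smallest SD over the 6 libraries on this log2 scale was that of Rpl36a (0.02), followed by Rps9, Rps12 and Rps25 at 0.06. Rpl36a lay at -0.05 to 0.00, next to the median used for the centring. Its small SD is thus in part built in and does not show a steady level. The widest spread was that of Rps27rt (SD 4.53), Rpl26 (0.53), Rps27l (0.49) and Rpl37 (0.45). Relative to the module, Rpl21 lay at -0.92, -1.09 and -0.55 for WT and higher, at -0.34, -0.20 and -0.15, for db/db. Rpl10 lay at 1.67, 1.13 and 1.93 for WT against 1.88, 2.14 and 2.06 for db/db. At an unadjusted p under 0.05, 4 members were higher (Rpl21, Rpl10, Rpl26 and Rpl5, 8.1% of all genes) and 2 lower (Rps27rt and Rplp2, 0.251% of all genes). After Benjamini-Hochberg adjustment in limma, 0 members were called as higher and 1 as lower, Rps27rt (0.318% and 0.00838% of all genes). That call carries little weight, because the prior degrees of freedom were estimated as infinite, so the SE of 0.339 came wholly from other genes and not from the wide spread of Rps27rt. The call ended with a robust prior (limma adjusted p = 0.593), without a trend (0.307) and without a filter (0.0545).

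Rps27rt is a retrocopy of Rps27, and the pair is set out together here. The part that the division of shared reads has in the values of the pair was not tested. In the GENCODE annotation of GRCm38, Rps27 on chromosome 3 has 4 exons and Rps27rt on chromosome 9 has 1. Their coding sequences of 255 bases, stop codon included, are identical, as shown here once for both. Rps27l, a paralog also on chromosome 9 and known as a target of p53, differs at 61 of the 255 bases (76.1% identity), given in capitals.
Rps27 and Rps27rt: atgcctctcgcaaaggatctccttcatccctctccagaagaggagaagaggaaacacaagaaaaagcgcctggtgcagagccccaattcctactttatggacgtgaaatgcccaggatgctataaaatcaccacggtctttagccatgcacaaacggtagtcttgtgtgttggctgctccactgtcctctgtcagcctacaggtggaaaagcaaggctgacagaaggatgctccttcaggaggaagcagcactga
Rps27l: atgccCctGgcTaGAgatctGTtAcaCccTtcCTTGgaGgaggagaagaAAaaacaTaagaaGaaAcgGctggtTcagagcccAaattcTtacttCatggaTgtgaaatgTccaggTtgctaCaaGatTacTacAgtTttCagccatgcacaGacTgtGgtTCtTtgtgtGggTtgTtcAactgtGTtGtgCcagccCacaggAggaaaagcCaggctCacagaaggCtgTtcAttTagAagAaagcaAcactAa
The identity runs past the coding sequence. The transcripts of Rps27 (345 bases) and Rps27rt (374 bases) share an unbroken run of 341 bases, after which Rps27rt has 33 bases of its own, 32 of them A. A read of 75 nucleotides from within the run fits both genes equally. The longest run shared by Rps27 and Rps27l is 11 bases. Ahead of the transcribed part the genes differ, as the RefSeq windows show (GRCm38.p6, 10 bases before and 20 from the start, pyrimidine tract in capitals).
Rps27, chr3:90213629-90213658, minus strand: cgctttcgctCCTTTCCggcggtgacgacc
Rps27rt, chr9:114982720-114982749, minus strand: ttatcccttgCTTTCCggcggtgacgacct

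Rps27rt was listed at 1155, 2885 and 2964 TPM in WT and at 0.01, 29.1 and 699 TPM in db/db. Rps27 was listed at 10761, 10229 and 5726 TPM in WT and 11112, 6790 and 5839 TPM in db/db. The copy thus took 9.69%, 22% and 34.1% of the pair's TPM in WT but 9.00e-05%, 0.427% and 10.7% in db/db, and its highest db/db share lay just above its lowest WT share. The log2 ratio of copy to parent differed by -10.21, -5.99 and -2.11 within experiments 1, 2 and 3, and by -6.10 between group means (exact two-sided permutation test, p = 0.2, 0.4 adjusted over 6 pairs by Benjamini-Hochberg). The log2 fold change of Rps27rt was -6.28 (SE 1.21, limma adjusted p = 0.0649). With the experiment as a block, since the labels pair the libraries, it passed (limma adjusted p = 0.0261, lower calls 1 of 83 members beside 0.0168% of all genes), as it did at a mean of at least 5 TPM (0.0188). Leaving out a library moved it to -3.89 without db/db replicate 1 (adjusted p = 0.0392) and -8.60 without db/db replicate 3 (2.09e-11), and it passed without WT replicate 1 (0.000107). These were the 5 of its 20 alternatives in which it passed. It did not pass with a robust prior (limma adjusted p = 0.923), without a trend (0.694), after median-of-ratios (0.594) or quantile scaling (0.547) or with the length trend removed (0.375). The blocked fit also lost the call when combined with median-of-ratios scaling (0.304) or removal of the length trend (0.176). Over all 20 alternatives the adjusted p ran from 2.09e-11 to 0.923. The sum of the pair, which the division of shared reads between the genes leaves nearly unchanged, averaged 11240 ± 2288 TPM for WT against 8156 ± 2564 TPM for db/db (SD, n = 3 each), or -0.48 as a log2 fold change.

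**Figure D5:**
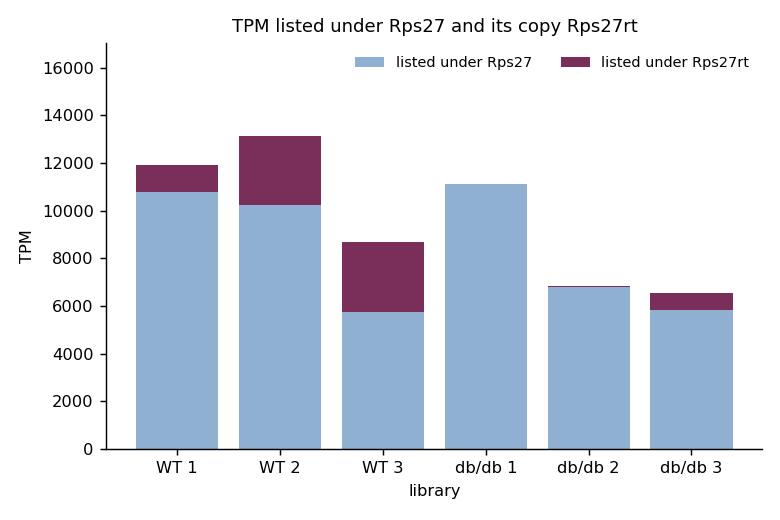
Stacked bars give the TPM listed under Rps27 (light blue) and under its copy Rps27rt (dark red) in each library, from 0. The dark part is 9.69% to 34.1% of the bar in WT and at most 10.7% in db/db, while the bars themselves overlap in height between the genotypes.

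The other copies were less alike in sequence. Rpl36al on chromosome 12 differs from the X-linked Rpl36a at 39 of 321 coding bases (87.9% identity), and their transcripts share no run longer than 24 bases, so most reads can be told apart. The first 90 coding bases are shown with the 14 differences of Rpl36al in capitals.
Rpl36a: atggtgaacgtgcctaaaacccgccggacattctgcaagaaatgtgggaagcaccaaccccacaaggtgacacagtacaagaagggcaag
Rpl36al: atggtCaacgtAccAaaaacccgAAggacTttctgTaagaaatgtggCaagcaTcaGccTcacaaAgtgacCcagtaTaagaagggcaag
Rpl36al was listed at 980, 1560 and 1098 TPM in WT and 1315, 1191 and 1092 TPM in db/db, and Rpl36a at 2926, 3626 and 2787 TPM in WT and 2877, 2290 and 2335 TPM in db/db. The copy made up 25.1%, 30.1% and 28.3% of the pair in WT but 31.4%, 34.2% and 31.9% of it in db/db, without overlap. The log2 ratio was 0.32 higher in db/db, by 0.45, 0.27 and 0.25 within the experiments (exact two-sided permutation test, p = 0.1, the smallest it can give, 0.4 adjusted over 6 pairs).

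None of the 4 remaining pairs that could be tested passed. Rpl22l1, which can replace Rpl22 in the ribosome, was the major partner, with 61.6% to 69.8% of the pair's TPM over the 6 libraries. Its log2 ratio to Rpl22 differed by -0.02 between genotypes (exact p = 0.8). Rps27l averaged 416 ± 114 TPM for WT and 313 ± 50.0 TPM for db/db (SD, n = 3 each), and its ratio to Rps27 differed by -0.21 (exact p = 0.8). Rpl7l1, at 1.71% to 3.36% of the pair with Rpl7, differed by -0.10 (exact p = 0.7). Rps4l, at 0.082% to 0.208% of the pair with Rps4x, was higher relative to its parent in each experiment, by 0.24, 0.53 and 1.09 (exact p = 0.2). Adjusted over the 6 pairs, these p-values were 0.4 to 0.8.

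Genes next to the ribosome in function were read from the same fit. Fau, which encodes a ribosomal protein fused to a ubiquitin-like protein and falls outside the naming rule, had a log2 fold change of -0.37. It was listed at 3313, 2293 and 2325 TPM in WT and 3015, 1646 and 1634 TPM in db/db. Gnb2l1, the ribosome-bound scaffold also called Rack1, was at -0.19. Of 17 other mRNAs known to begin with a pyrimidine tract, such as those of elongation factors, 0 passed in limma, 0 had an unadjusted p under 0.05 and the median was 0.04, with 7 below 0. For 30 ribosome biogenesis factors the median was 0.12, where 0 passed and 1 was lower by the unadjusted p. For 77 mitochondrial ribosomal proteins, which belong to a separate ribosome, the median was -0.07, where 0 passed and 3 were lower by the unadjusted p. The median of all genes was 0.18, and 1.25% of them were lower by the unadjusted p. In experiment 2, where the cytosolic members lay at -0.56, these 3 lists lay at -0.04, 0.19 and -0.04. All genes tested had a median of 0.45 in that experiment, so the 3 lists lay below it too.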

How the data were processed

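The deposited table gives TPM per gene symbol for 6 libraries. Per the submitters' processing notes, the authors used RSEM, Bowtie2 and the mm9 build. Their versions, options and annotation are not given in the sources used here. RSEM divides reads that fit several genes by an estimate. The RNA was amplified, made into libraries with a stranded mRNA kit and read as pairs of 75 nucleotides, per the labels' protocols. TPM holds no depth, so no counting interval was possible and precision rests on the spread between libraries.

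Limma 3.58.1 (R 4.3.3) was run on log2(TPM + 1) for the 11931 genes whose mean reached 1 TPM. The model held genotype alone, moderation used a trend, and two-sided p-values were adjusted by Benjamini-Hochberg (17.7 prior and 4 residual degrees of freedom). Fold changes are on that scale and understate those of low genes. Single values per library were tested by exact permutation. On data simulated over the same 11931 genes for this comparison, with 200 genes changed in 5 runs, 2% of genes changed by 1 and 36.8% of those changed by 2 on the log2 scale were recovered, so smaller differences could rarely pass. The labels pair libraries by experiment. Deviations from group means of libraries of an experiment correlated at 0.04, 0.01 and 0.16 across all genes. Across the members tested they correlated at 0.56, -0.12 and 0.47, and for libraries of different experiments at -0.53 to 0.44.

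Lengths and copy sequences came from GENCODE (GRCm38) and start windows from RefSeq (GRCm38.p6), by symbol, since the table's own build has no annotation here. Copies were aligned with Biopython 1.88. The length trend was a natural spline of 4 degrees of freedom per library.

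The genes named are every copy with its parent, the 6 members of highest mean, the 6 of lowest and 6 of highest log2 fold change, the 4 of smallest and of largest SD relative to the module, members under 1 TPM and 8 of known role. Members, lists and rule were chosen with earlier results of these data known. Alternatives were pseudocounts of 0.1 and 0.5, no filter or a minimum mean of 5 TPM, scaling by median of ratios or quantiles, leaving out rRNA-like symbols, no trend, a robust prior, array weights, the replicate block, length trends, and each library left out. Summing Rps27 with Rps27rt and combining the block with median-of-ratios scaling were chosen after seeing the data.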

Additional observations from a re-analysis of the deposited data

How the results depend on the processing

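No member passed as higher under any of 21 alternatives. The count of members passing as lower was 0, and 1 at a mean of at least 5 TPM; leaving out 1 library gave 0 to 1, and the member was Rps27rt each time. With the replicate block, which follows the pairing by experiment, it was 1, and the block changed no other call. It was 0 in both other blocked fits, those with median-of-ratios scaling or with the length trend removed. Relative to the module, the count of 1 became 0 without a filter on low values, 0 without a trend and 0 with a robust prior, and stayed at 1 to 1 with a library left out. The cause was not tested. The median log2 fold change of the members stayed below 0 under its 23 alternatives, from -0.44 to -0.11. Relative to all genes it was -0.42, -0.12 after quantile normalization, and -0.63 to -0.23 with a library left out. The share of TPM differed by -7.03 to -2.50 percentage points with a library left out, the log2 ratio of small to large subunit by -0.069 to 0.004, with the positive value without db/db replicate 2. For the log2 ratio of copy to parent the ranges were -8.62 to -3.44 for Rps27rt, -0.59 to 0.20 for Rps27l, -0.14 to 0.14 for Rpl22l1, 0.22 to 0.40 for Rpl36al, -0.29 to 0.16 for Rpl7l1 and 0.46 to 0.84 for Rps4l. With 3 libraries a group and unknown depth, a member that did not pass cannot be called equal between the genotypes. How often differences of the size seen for most members could pass was not measured for the members themselves.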

Other observations

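Rows named as pseudogenes of members fall outside the naming rule and were left out of every count above. Rpl34-ps1 was listed at 1813, 1464 and 1705 TPM in WT and 1489, 1356 and 1315 TPM in db/db, which is 216% to 293% of the TPM of Rpl34 itself in the same libraries. Rps15a-ps6 was at 28.3% to 37.9% and Rps15a-ps4 at 20.9% to 30.0% of Rps15a. Rpl31-ps12 was listed at 193 TPM in WT replicate 2 and at 30.4 to 52.7 TPM in the other 5 libraries. For Rpl34 and Rps15a, which stand near the bottom of the order of levels, the deposited level is therefore only part of the TPM that carries their name.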
